A study of Homo sapiens with 9 samples.

Results

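Interferon-stimulated genes are the genes that cells transcribe when an interferon binds its receptor. A list of 42 of them was matched by gene name in a table of 58735 genes, and all 42 were found. The match used names alone and no measured value, but the list was chosen with earlier results of these data known. Their RNA was followed in 9 RNA-seq libraries of the established line H1299, which the labels call lung adenocarcinoma cells. Of these, 3 libraries came from Vector cells, which are wild type for BCKDK and carry the lentiviral plasmid lentiCRISPR v2. The other libraries came from KO1 and KO2, with 3 each. KO1 and KO2 are 2 monoclonal lines in which CRISPR was used to knock out BCKDK, the kinase that switches off branched-chain ketoacid dehydrogenase. No group was labelled as treated with an interferon, so the values are levels in the cells as cultured. Only the knockout lines are described as clones of single cells, so editing and cloning cannot be told apart, and for knockout of BCKDK the unit is the clone, with n = 2. Nothing in the labels ties the 3 libraries within a group to separate cultures, so each p-value measures only their spread.

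Type I interferons signal through the receptor chains IFNAR1 and IFNAR2 and the kinases JAK1 and TYK2. These phosphorylate STAT proteins, which join IRF9 to form the complex ISGF3. ISGF3 binds a short promoter sequence, the interferon-stimulated response element (ISRE), and switches on genes whose products bind viral RNA, stop translation, tag proteins with ISG15 or restrain the response itself. Many tumour cell lines transcribe part of this programme without added interferon.

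The 9 libraries held 16002212 to 17090445 reads assigned to genes, so depth was nearly equal. BCKDK itself stood at 13.7, 12.9 and 17.5 FPKM (reads per length of exon and size of library) in Vector, against 1.91, 2.06 and 1.67 in KO1 and 0.628, 0.576 and 0.287 in KO2, and no knockout library reached the lowest Vector library. In both Vector and KO2, replicate 3 stood apart from the rest of its group. Across the interferon-stimulated genes, Vector replicate 3 differed from its group by a median absolute log2 difference of 0.225 and 0.213, while the remaining Vector pair differed by 0.108. For KO2 replicate 3 these medians were 0.198 and 0.163, while the remaining KO2 pair differed by 0.05, and within KO1 they were 0.069 to 0.079.

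The sequences below are stretches of the promoters of 8 members, chosen because they show the element through which ISGF3 acts and because the results below turn on most of these genes. Capitals mark matches to the ISRE core, written GAAANNGAAA, on either strand. Where the capitals begin with TTTC, the core lies on the strand opposite to the gene.
IFIT1: tagTTTCACTTTCcccTTTCGGTTTCccta
IFIT3: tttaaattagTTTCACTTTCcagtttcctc
IFIT5: ttacgtttagTTTCGATTTCttaagtttc
OAS3: agccgggcggGAAAACGAAAcc
ISG15: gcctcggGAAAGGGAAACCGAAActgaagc
PARP14: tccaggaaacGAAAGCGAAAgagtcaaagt
SAMD9: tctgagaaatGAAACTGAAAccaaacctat
IFI44: gcacactgagTTTCAGTTTCctttctct
Each is printed 5′ to 3′ on the strand of its gene, from RefSeq promoters on GRCh38.p14. The IFIT1 stretch is chr10:89392504-89392533 (plus strand) and holds 2 cores, the nearer ending 94 bases before the RefSeq start. The stretches of IFIT3 and IFIT5 are chr10:89327865-89327894 and chr10:89414539-89414567, both on the plus strand. The OAS3 stretch is chr12:112938452-112938473 (plus strand), with its core 3 bases before the start. The ISG15 stretch, chr1:1013377-1013406 (plus strand), holds 2 cores that share 4 letters. The others are PARP14 at chr3:122680800-122680829 (plus strand), SAMD9 at chr7:93118096-93118125 (minus strand) and IFI44 at chr1:78649761-78649788 (plus strand).

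The core was common among the members. Promoters of 34 members were in the RefSeq table, and 15 of the 34 (44.1%) held at least 1 core within 250 bases before the start. Of all 27303 promoters searched over the same length, 839 (3.07%) held one. The 15 were IFIH1, IFIT1, IFIT3, IFIT5, OAS3, ISG15, HERC5, PARP14, SAMD9, IFI6, IFI27, IFI44, IFI44L, BST2 and ISG20. A second element, the gamma-activated site written TTCNNNGAA, was in 7 of the 34 (20.6%) and in 1850 of all promoters (6.78%). IRF7, DHX58, IFIT2, OAS2, OASL, MX2, USP18 and PML had no entry. A match is a run of letters and was not tested as a binding site.

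In KO1, most members that changed were lower than in Vector, while in KO2 members moved both ways. UBE2L6 (the conjugating enzyme for ISG15), USP18, OAS3, SAMD9 and all 4 IFIT genes fell in KO1. In KO2, IFIT3, IFIT5, SAMD9, USP18, SP100 and TRIM25 fell, while the transcription factors IRF1, IRF7 and STAT2 rose. IRF1, IRF7, ADAR and PML rose in each clone. TRIM25 and IFIT1 moved in opposite directions in the 2 clones. Not all of these changes were stable. Those of IFIT1, IFIT5, USP18 and STAT2 in KO2, and of IRF1, ADAR and PML in KO1, each missed the threshold in at least 1 fit that left out 1 library. The fall of IFIT1 in KO1 missed it once the median change of neighbouring genes was subtracted.

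Of the 42 members, 29 averaged 0.5 FPKM or more over the 9 libraries and were fitted with limma on log2(FPKM + 1), together with all other genes above that minimum. A member was called where its Benjamini-Hochberg adjusted p over all 16426 fitted genes was under 0.05. In KO1 against Vector 5 of the 29 rose (17.2%), beside 17.4% of all fitted genes, and 13 fell (44.8%), beside 16.7% of all. The median log2 change of the fitted members was -0.27, against 0.01 for all fitted genes. In KO2 against Vector 8 rose (27.6%), beside 12.9% of all, and 6 fell (20.7%), beside 15% of all. The members' median there was 0.00, against -0.01 for all genes. The direct comparison of the clones gave 12 members higher in KO2 than in KO1 (41.4%), beside 14.5% of all genes, and 2 lower (6.9%), beside 16.4% of all, with a median of 0.23 against -0.02. The share of rising members in KO1 was near that of all genes, and so, less closely, was the share of falling members in KO2.

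Those shares describe the members that passed the minimum. Each of the 29 averaged at least 0.5 FPKM in Vector. In KO1, 7 of them averaged less (IFIT1, IFIT2, IFIT3, OAS3, SAMD9, UBE2L6 and USP18), as did 8.19% of all fitted genes. In KO2 it was 3 (IFIT3, SAMD9 and SP100), as did 4.4% of all. A gene that passes only through the group where it is high has to differ, so the counts are given without a test. The number of the 42 members under 0.5 FPKM was 10 to 11 in the Vector libraries, 20 to 21 in KO1 and 14 to 17 in KO2. Mean log2(FPKM + 1) of the 29 was 2.30, 2.23 and 2.31 in Vector, 1.87 in every KO1 library, and 2.15, 2.18 and 2.27 in KO2. By this mean the KO1 libraries lay below all others, and KO2 replicate 3 reached into the Vector range. The summed FPKM of the 42, which gives abundant members more weight, was not lower in KO1. It was 172, 161 and 185 in Vector, 181, 182 and 180 in KO1, and 173, 179 and 188 in KO2. Much of this sum came from TRIM25, which averaged 29.04, 57.59 and 17.82 FPKM in Vector, KO1 and KO2, and from ADAR, at 24.99, 33.95 and 37.28. Both rose in KO1, so the sum says little about the other members, and a sum without these genes was not computed. In these bulk libraries, fewer cells with a transcript and less of it per cell cannot be told apart. The heat map of levels shows the darkening of the IFIT, OAS3, USP18, UBE2L6 and SAMD9 lines in KO1.

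**Figure D1:**
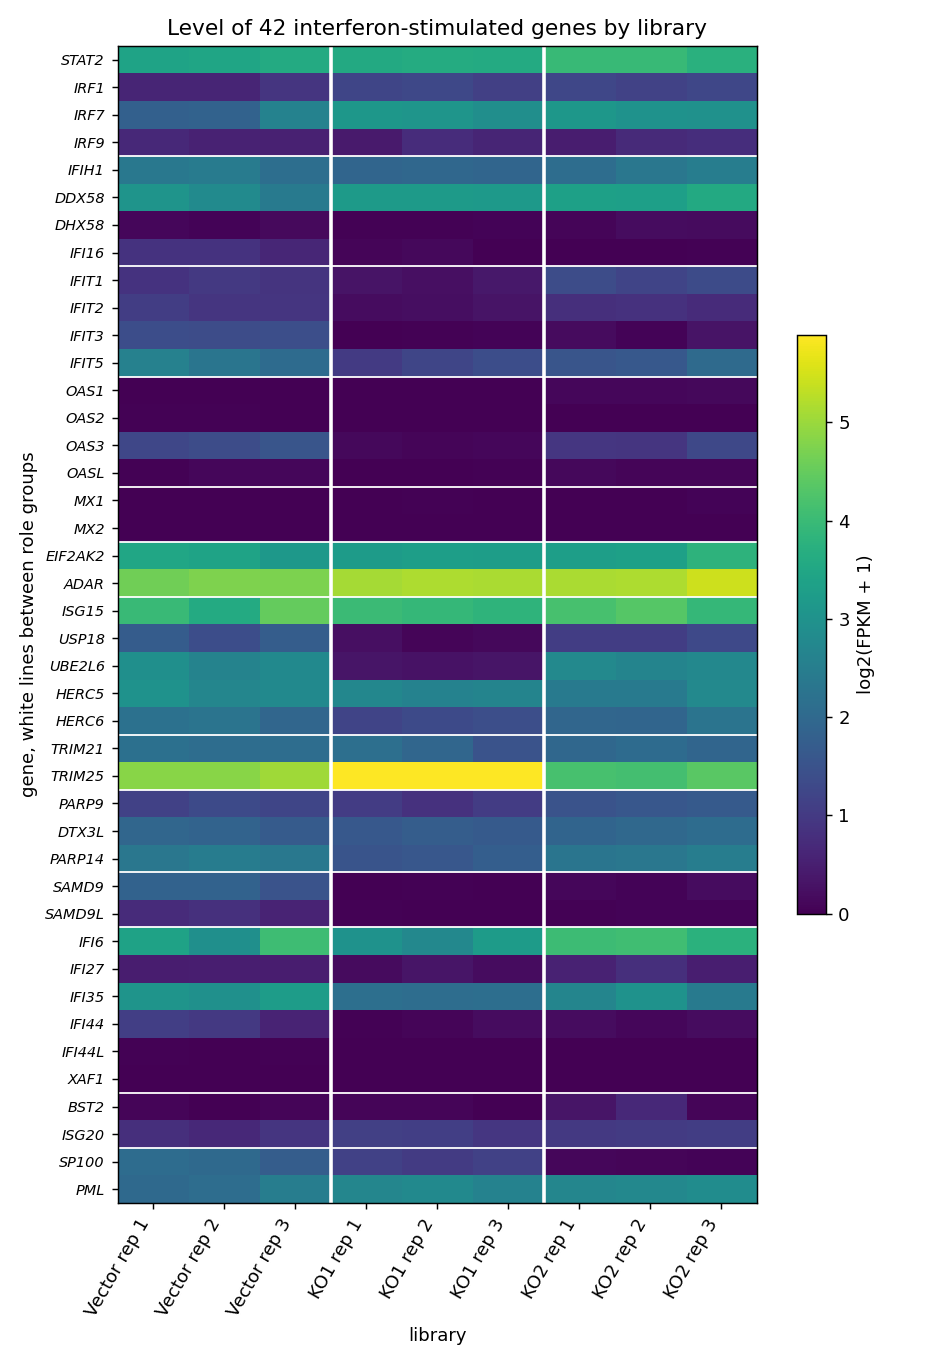
Level of the 42 members in the 9 libraries as log2(FPKM + 1), by colour, with genes as lines (white lines part the role groups) and libraries as columns (white bars part Vector, KO1 and KO2). UBE2L6 and USP18 are dark in the 3 KO1 libraries only, SP100 is darkest in KO2, and IFIT3 and SAMD9 are dark in both clones.

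With equal sums of FPKM per library in place of the deposited scaling, the same numbers of members rose and fell in KO1 (5 and 13) and in KO2 (8 and 6), and 14 were higher and 2 lower in KO2 than in KO1. Over all called genes, that setting moved the share of risers from 51.1% to 39.3% in KO1, from 46.1% to 49.3% in KO2 and from 47% to 61.1% between the clones. Without Vector replicate 3 and KO2 replicate 3, 8 members rose and 15 fell in KO1, 9 rose and 9 fell in KO2, and 13 were higher and 2 lower in KO2 than in KO1. Far more genes of all kinds then passed (9335, 8138 and 7834, against 5609, 4586 and 5079).

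The calls were also counted by whether a core was found. Of the 11 fitted members with a core, 0 rose and 7 fell in KO1 by limma, while of the 14 fitted members searched without one, 3 rose and 4 fell, beside 17.4% and 16.7% of all fitted genes. In KO2 the counts were 1 rising and 3 falling of 11, and 5 rising and 2 falling of 14, beside 12.9% and 15% of all. Between the clones 5 of 11 were higher in KO2 and 0 lower, and 5 of 14 were higher and 2 lower, beside 14.5% and 16.4% of all. Of the members with a core, IFIT1, IFIT3, OAS3 and SAMD9 averaged under 0.5 FPKM in KO1 and passed the minimum through other groups. This split was made after the calls were known, and the difference between the groups of members was not tested.

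The transcription factors come first, because they carry the signal to the other members. STAT2, the ISGF3 subunit that holds the activation domain, measured 9.61, 10.1 and 11.1 FPKM in Vector, 11.0, 11.3 and 11.1 in KO1 and 14.7, 14.7 and 12.4 in KO2. All KO2 libraries were above all Vector libraries, and KO1 overlapped Vector. STAT2 rose in KO2 by 0.41 on the log2 scale (SE 0.10, limma adjusted p = 0.0155) and did not pass in KO1 (0.11, limma adjusted p = 0.43). IRF9, the DNA-binding subunit of ISGF3, was low in every library, at 0.465 to 0.609 FPKM in Vector against 0.347 to 0.681 in KO1 and 0.388 to 0.716 in KO2. The 3 groups overlapped, and the changes of -0.01 and 0.05 did not pass (limma adjusted p = 0.968 and 0.81). The span of IRF9 is overlapped on its own strand by another coding gene, AL136295.5, so its level is uncertain.

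IRF7, which amplifies interferon production after infection, measured 2.52, 2.61 and 5.13 FPKM in Vector, 7.65, 7.37 and 6.48 in KO1 and 7.60, 7.05 and 6.86 in KO2. Every knockout library was above every Vector library, with Vector replicate 3 nearest to them. IRF7 rose by 0.93 in KO1 (SE 0.20, limma adjusted p = 0.00591) and by 0.94 in KO2 (SE 0.20, limma adjusted p = 0.00715), and the difference between the clones did not pass (0.00, SE 0.20, limma adjusted p = 0.996). IRF1, an interferon-induced activator that also works without STAT2, measured 0.522, 0.523 and 0.890 FPKM in Vector, 1.35, 1.40 and 1.16 in KO1 and 1.40, 1.23 and 1.38 in KO2. Again no knockout library reached down to the Vector range. IRF1 rose by 0.49 in KO1 and 0.51 in KO2 (SE 0.12, limma adjusted p = 0.0128 and 0.0127). C5orf56 and the coding gene AC116366.3 overlap the span of IRF1 on the other strand, and their part in the IRF1 values was not tested. The KO1 call of IRF1 was lost without KO1 replicate 2 (limma adjusted p = 0.0543). The KO2 call of STAT2 was lost without Vector replicate 1 or 2 or KO2 replicate 1 or 2 (limma adjusted p = 0.0516 to 0.0639) and in a fit of the 2 groups alone (0.0725), while without both libraries that stood apart STAT2 passed in KO1 too (0.17, limma adjusted p = 0.0183).

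Among the sensors of foreign nucleic acid, IFI16 was all but lost in both clones. IFI16, which binds DNA in the nucleus, had 71, 73 and 52 reads in Vector, 5, 8 and 0 in KO1 and 0, 0 and 2 in KO2. Every Vector library lay above both clones, which overlapped each other. Its mean was under the minimum, and in a limma fit of all 35603 genes with any read it fell by 0.72 in KO1 and 0.78 in KO2 (adjusted p = 0.000483 and 0.000449). The RNA helicase IFIH1 (MDA5) measured 3.35 to 4.45 FPKM in Vector against 2.77 to 2.88 in KO1 and 3.33 to 4.63 in KO2. IFIH1 fell in KO1 (-0.38, limma adjusted p = 0.0432), a call lost without any 1 of Vector replicates 1 and 2, KO1 replicates 1 to 3 and KO2 replicate 2 (up to 0.143), and at -0.11 once the median of neighbouring genes was subtracted. The related helicase DDX58 (RIG-I) measured 4.31 to 7.23 FPKM in Vector against 7.94 to 8.29 in KO1 and 9.05 to 11.0 in KO2. DDX58 rose in KO2 (0.66, SE 0.16, limma adjusted p = 0.012), and its KO1 value of 0.43 missed the threshold (0.0562) but passed without Vector replicate 1 (0.58, limma adjusted p = 0.0221). With the medians of neighbouring genes subtracted, DDX58 stood at 0.13 in KO1 and 0.84 in KO2 (limma adjusted p = 0.609 and 0.00706). DHX58 (LGP2), the third of this helicase family, was at most 0.145 FPKM.

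The IFIT proteins bind viral RNA and block its translation. Their 4 genes, IFIT2, IFIT3, IFIT1 and IFIT5, lie within 137 kb on chromosome 10 (89283694 to 89421001, hg38). All 4 fell in KO1, and they parted company in KO2. IFIT3 measured 1.63, 1.57 and 1.68 FPKM in Vector, 0, 0.0233 and 0.0448 in KO1 and 0.129, 0.0423 and 0.234 in KO2. In reads this was 71, 70 and 78 against 0, 1 and 2 and against 6, 2 and 10, with both clones far below Vector. IFIT3 fell by 1.36 in KO1 (SE 0.12, limma adjusted p = 3.25e-05) and by 1.21 in KO2 (SE 0.12, limma adjusted p = 9.51e-05), and the difference of 0.15 between the clones did not pass (0.369). IFIT3 averaged under 0.5 FPKM in both clones and passed the minimum through Vector alone, so its p-values against Vector add no test.

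IFIT1, the neighbour of IFIT3, did not follow it in KO2. It measured 0.817, 0.961 and 0.839 FPKM in Vector, 0.231, 0.173 and 0.295 in KO1 and 1.58, 1.29 and 1.53 in KO2. The 3 groups did not overlap, with KO1 lowest and KO2 highest. IFIT1 fell by 0.60 in KO1 (SE 0.11, limma adjusted p = 0.00273) and rose by 0.40 in KO2 (SE 0.11, limma adjusted p = 0.0238), and KO2 exceeded KO1 by 1.0 (limma adjusted p = 0.000195). The rise in KO2 was lost without Vector replicate 1 or KO2 replicate 1 (limma adjusted p = 0.0695 and 0.0816) and with a replicate block (0.0517), a pseudocount of 0.1 (0.0631) or a fit of the 2 groups alone (0.0681). IFIT2, which lies on the other side of IFIT3, measured 0.945 ± 0.118 FPKM in Vector against 0.178 ± 0.048 in KO1 and 0.723 ± 0.0669 in KO2 (SD, n = 3). IFIT2 fell in KO1 (-0.72, limma adjusted p = 0.00112) and did not pass in KO2 (-0.17, limma adjusted p = 0.275).

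IFIT5 was the most abundant IFIT transcript per length in Vector, at 5.05, 3.85 and 3.15 FPKM, and measured 1.01, 1.36 and 1.64 in KO1 and 1.95, 2.09 and 3.08 in KO2. Both clones were below the lowest Vector library, though KO2 replicate 3 came close to it. IFIT5 fell by 1.09 in KO1 (SE 0.18, limma adjusted p = 0.00166) and by 0.57 in KO2 (SE 0.18, limma adjusted p = 0.0414). The KO2 call was lost without any 1 of Vector replicates 1 and 2, KO1 replicates 2 and 3 and KO2 replicates 1 and 2 (limma adjusted p = 0.0523 to 0.139) and with a replicate block (0.0784), a pseudocount of 0.1 (0.0528), no minimum (0.0909) or a fit of the 2 groups alone (0.0781). Genes within 5 Mb of the cluster had a median change of -0.21 in KO1 and -0.28 to -0.29 in KO2. With those medians subtracted, IFIT1 no longer passed in KO1 (-0.37, limma adjusted p = 0.0727) and IFIT5 no longer passed in KO2 (-0.25, limma adjusted p = 0.237). The rise of IFIT1 in KO2 was larger in that setting (0.72, limma adjusted p = 0.00493). There IFIT5 also passed between the clones (0.61, limma adjusted p = 0.0115), where it had missed before (0.0543).

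IFIT1, IFIT2 and IFIT3 lie within the span of LIPA, a lysosomal lipase gene on the other strand. LIPA measured 10.7 to 14.6 FPKM in Vector against 6.39 to 6.83 in KO1 and 12.5 to 13.6 in KO2, and it fell in KO1 (-0.86, limma adjusted p = 0.000561) and stood at 0.04 in KO2, with KO2 above KO1 by 0.90 (limma adjusted p = 0.000514). Whether counting used strand is not given in the sources used here, so the part of LIPA reads in the IFIT values was not tested. The panels of clustered members show IFIT3 and SAMD9 low in both clones beside IFIT1 and IFIT2, which were low in KO1 only.

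**Figure D2:**
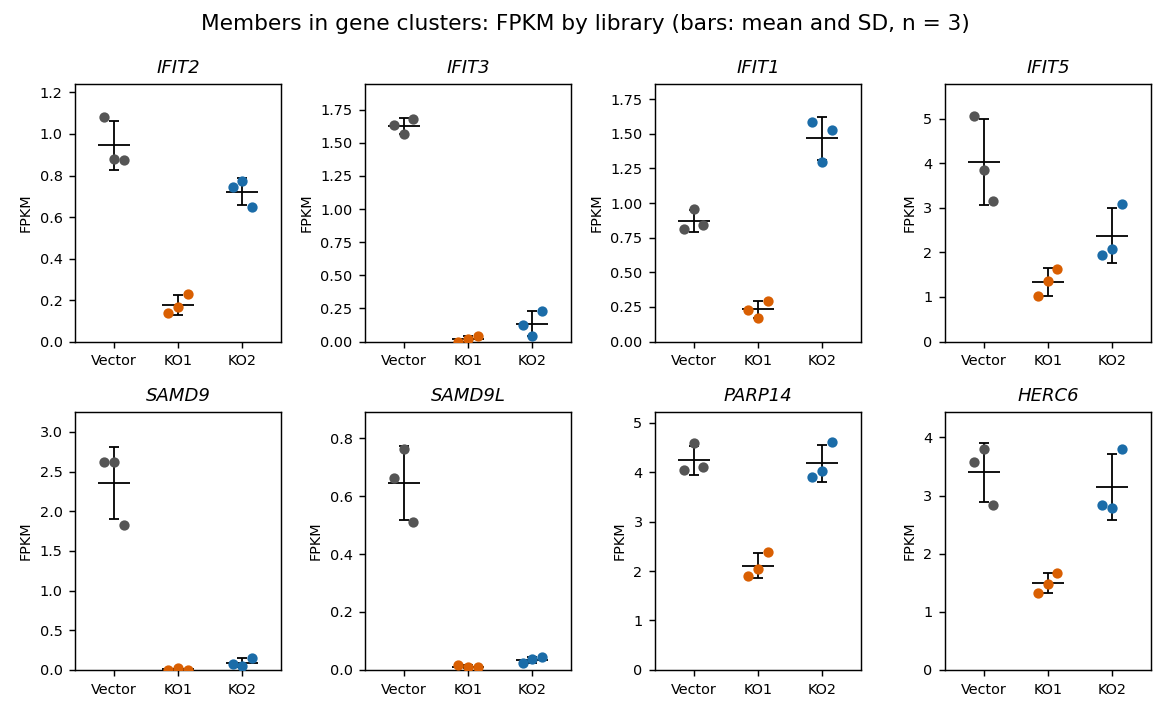
FPKM of 8 members that lie in gene clusters, by library (points; bars give mean and SD, n = 3; each panel starts at 0). IFIT3, SAMD9 and SAMD9L sit near 0 in both clones, whereas IFIT1 in KO2 lies above all 3 Vector libraries, and PARP14 and HERC6 are lower in KO1 only.

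The oligoadenylate synthetases make the messenger that activates RNase L. In each group OAS3 carried most of the family's RNA, though in KO1 this was only 7 to 12 reads per library. OAS3 measured 1.39, 1.59 and 1.95 FPKM in Vector, 0.0911, 0.0522 and 0.0789 in KO1 and 0.892, 0.879 and 1.44 in KO2. KO1 was far below both other groups, and KO2 replicate 3 overlapped Vector. OAS3 fell by 1.29 in KO1 (SE 0.14, limma adjusted p = 0.000148) and stood at -0.36 in KO2 (limma adjusted p = 0.0844), with KO2 above KO1 by 0.94 (0.00112). Without KO2 replicate 3 the KO2 value was -0.48 and passed (limma adjusted p = 0.0247). OAS1, a neighbour within 105 kb on chromosome 12, had 0 reads in all Vector and KO1 libraries and 6, 7 and 7 reads in KO2. In the fit without a minimum OAS1 rose in KO2 (0.11, limma adjusted p = 0.0054). OAS2 had at most 2 reads and OASL at most 6 in any library.

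The Mx proteins, GTPases that trap viral nucleocapsids, were hardly transcribed. MX1 had at most 6 reads in a library, and MX2 was listed at 0 in all 9. Of the double-stranded RNA binding enzymes, EIF2AK2 (PKR), the kinase that stops translation, measured 7.85 to 10.1 FPKM in Vector against 8.34 to 8.78 in KO1 and 8.89 to 13.1 in KO2. Its values of -0.08 and 0.14 did not pass (limma adjusted p = 0.715 and 0.514). ADAR, which edits adenosine in double-stranded RNA and so keeps the cell's own RNA from setting off MDA5, measured 23.5 to 25.8 FPKM in Vector against 33.0 to 34.7 in KO1 and 34.4 to 42.4 in KO2. No knockout library fell to the Vector range. ADAR rose by 0.43 in KO1 (SE 0.11, limma adjusted p = 0.013) and 0.55 in KO2 (SE 0.11, limma adjusted p = 0.00466). The KO1 call was lost without KO1 replicate 2 (0.0579) and with the neighbours' median of 0.26 subtracted (0.17, limma adjusted p = 0.316).

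ISG15 is a ubiquitin-like protein that UBE2L6 and the ligase HERC5 attach to targets and that USP18 removes. ISG15 itself measured 14.8, 11.1 and 21.4 FPKM in Vector, 15.1, 14.1 and 13.1 in KO1 and 17.1, 19.1 and 14.2 in KO2. The groups overlapped, and the values of -0.10 and 0.13 did not pass (limma adjusted p = 0.737 and 0.689), although the ISG15 promoter holds the double core printed above. Without both libraries that stood apart, ISG15 passed in KO2 (0.47, limma adjusted p = 0.0253).

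On the log2(FPKM + 1) scale UBE2L6 had the largest change of any fitted member in either clone. It measured 6.58, 5.19 and 5.93 FPKM in Vector, 0.257, 0.224 and 0.269 in KO1 and 5.88, 5.26 and 5.68 in KO2. KO1 was far below every other library, and KO2 lay within the Vector range. UBE2L6 fell by 2.46 in KO1 (SE 0.10, limma adjusted p = 6.25e-07). With limma-voom on the recovered reads, which adds less to low values, the log2 change of UBE2L6 was -4.48. Those of IFIT3 (-5.83) and SAMD9 (-8.26) in KO1 and of SP100 (-5.48) and SAMD9 (-4.76) in KO2 were larger there and rest on few reads in the clone. In KO2 the change was -0.06 (limma adjusted p = 0.702), and KO2 exceeded KO1 by 2.40 (limma adjusted p = 9.11e-07). The medians of neighbouring genes on chromosome 11 were 0.29 in KO1 and 0.16 in KO2, against the direction of the fall. No ISRE core was found in the 250 bases before the UBE2L6 start.

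USP18, which also blocks the interferon receptor, measured 2.26, 1.61 and 2.35 FPKM in Vector, 0.177, 0.0578 and 0.0834 in KO1 and 1.09, 1.10 and 1.48 in KO2. The 3 groups did not overlap. USP18 fell by 1.47 in KO1 (SE 0.14, limma adjusted p = 5.6e-05) and by 0.46 in KO2 (SE 0.14, limma adjusted p = 0.0314), and KO2 exceeded KO1 by 1.0 (limma adjusted p = 0.000651). The KO2 call was lost without Vector replicate 1 or 3 or KO2 replicate 1 or 2 (limma adjusted p = 0.0585 to 0.0994), and also with a pseudocount of 0.1 (0.105), with no minimum (0.0706) and in a fit of the 2 groups alone (0.0763). USP41, a near copy of USP18, was listed at 0 in all libraries. HERC5 measured 5.49 to 7.05 FPKM in Vector against 5.07 to 5.63 in KO1 and 4.25 to 5.78 in KO2, and passed in neither clone (-0.17 and -0.31), though it passed in KO2 without KO2 replicate 3 (-0.43, limma adjusted p = 0.0242). Its neighbour HERC6, a related HERC gene within 127 kb on chromosome 4, measured 3.40 ± 0.506, 1.49 ± 0.178 and 3.14 ± 0.574 FPKM in the Vector, KO1 and KO2 groups (SD, n = 3). HERC6 fell in KO1 (-0.81, limma adjusted p = 0.00162) and stood at -0.09 in KO2.

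TRIM25, the ligase that ubiquitinates RIG-I, went opposite ways in the clones. It measured 27.8, 27.5 and 31.8 FPKM in Vector, 57.4, 58.2 and 57.2 in KO1 and 17.1, 16.6 and 19.8 in KO2, without overlap between any groups. TRIM25 rose by 0.97 in KO1 (SE 0.10, limma adjusted p = 0.000142) and fell by 0.68 in KO2 (SE 0.10, limma adjusted p = 0.00148), a difference of -1.64 between the clones (limma adjusted p = 9.86e-06). It was the most abundant member per length in each group apart from ADAR, which exceeded it in KO2. DGKE, whose span overlaps TRIM25 on the other strand, measured 3.56 to 5.24 FPKM in Vector against 5.19 to 5.82 in KO1 and 2.72 to 2.92 in KO2, and its part in the TRIM25 values was not tested. Another coding gene, C17orf67, overlaps the span on the strand of TRIM25 itself, and its part was not tested either. The antibody receptor TRIM21 measured 3.31 to 3.53, 1.84 to 3.44 and 2.79 to 3.15 FPKM in Vector, KO1 and KO2 and passed in neither clone (-0.27 and -0.16).

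PARP9, DTX3L and PARP14, which act in ADP-ribosylation, lie within 203 kb on chromosome 3. PARP14 measured 4.24 ± 0.294 FPKM in Vector against 2.11 ± 0.249 in KO1 and 4.18 ± 0.375 in KO2 (SD, n = 3). PARP14 fell in KO1 (-0.76, limma adjusted p = 0.000604) and not in KO2 (-0.02), and KO2 exceeded KO1 by 0.74 (limma adjusted p = 0.000817). PARP9, which overlaps DTX3L on opposite strands, measured 1.35 ± 0.135, 0.974 ± 0.153 and 2.01 ± 0.161 FPKM. PARP9 rose in KO2 (0.36, limma adjusted p = 0.036), stood at -0.26 in KO1 and was higher in KO2 than in KO1 (0.61, limma adjusted p = 0.00272). The rise in KO2 was lost in 7 of 9 fits with 1 library less (all but those without Vector replicate 3 or KO1 replicate 2; up to 0.108) and with a replicate block (0.0699), no minimum (0.0732) or a fit of the 2 groups alone (0.0885). DTX3L passed only between the clones (0.32, limma adjusted p = 0.0435), a call lost in 7 of the 9 fits (all but those without Vector replicate 1 or 3; up to 0.145). The neighbours of both genes had a median of 0.33 between the clones, and with it subtracted PARP9 stood at 0.30 and DTX3L at 0.01 without passing.

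SAMD9 and SAMD9L, restriction factors for poxviruses that also curb cell growth, lie within 48.9 kb on chromosome 7 and were almost silent in both clones. SAMD9 measured 2.62, 2.62 and 1.83 FPKM in Vector, 0, 0.0179 and 0 in KO1 and 0.0743, 0.0488 and 0.153 in KO2. In reads this was 296, 304 and 220 against 0, 2 and 0 and against 9, 6 and 17. SAMD9 fell by 1.73 in KO1 (SE 0.13, limma adjusted p = 1.75e-05) and by 1.61 in KO2 (SE 0.13, limma adjusted p = 3.99e-05), and the clones differed by 0.12 without passing (0.541). SAMD9 averaged under 0.5 FPKM in both clones and passed the minimum through Vector alone. Its p-values against Vector, here and below, therefore add no test. SAMD9L, under the minimum, had 78, 92 and 64 reads in Vector, 2, 1 and 1 in KO1 and 3, 5 and 5 in KO2. It fell by 0.70 in KO1 and by 0.67 in KO2 in the fit without a minimum (limma adjusted p = 0.000222 and 0.000394). For genes within 5 Mb of SAMD9 the medians were -0.49 (KO1) and -0.32 (KO2), so the pair lies in a stretch that was lower in both clones. With those medians subtracted, SAMD9 still passed, at -1.16 in KO1 and -1.30 in KO2 (limma adjusted p = 6.72e-05 and 5.01e-05).

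The genes named IFI were found in interferon-treated cells and have mixed roles. IFI35, a partner of NMI, measured 7.53 ± 0.921 FPKM in Vector against 3.36 ± 0.0633 in KO1 and 5.63 ± 1.31 in KO2 (SD, n = 3). IFI35 fell in KO1 (-0.96, limma adjusted p = 0.00106), stood at -0.38 in KO2 (0.082) and passed there without KO2 replicate 2 (-0.52, limma adjusted p = 0.0259). IFI6, a mitochondrial and endoplasmic reticulum protein that blocks apoptosis, measured 9.55, 6.63 and 15.7 FPKM in Vector, 6.95, 5.76 and 8.35 in KO1 and 15.3, 16.0 and 12.5 in KO2. The spread in Vector was wide, and neither clone passed (-0.47 and 0.49, limma adjusted p = 0.183 and 0.18), while KO2 was higher than KO1 (0.97, limma adjusted p = 0.0188; lost without KO1 replicate 1 or 2 or KO2 replicate 1 or 2, up to 0.0705). Without Vector replicate 3 IFI6 passed in KO2 (0.79, limma adjusted p = 0.0122), and without Vector replicate 2 it passed in KO1 (-0.74, limma adjusted p = 0.0413).

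IFI44, under the minimum, had 38, 33 and 18 reads in Vector, 1, 2 and 5 in KO1 and 5, 3 and 5 in KO2. It fell by 0.78 in KO1 and by 0.72 in KO2 in the fit without a minimum (limma adjusted p = 0.00485 and 0.00846). Its neighbour IFI44L had at most 3 reads in a library. IFI27 measured 0.381 to 0.399 FPKM in Vector against 0.121 to 0.267 in KO1 and 0.402 to 0.740 in KO2, and passed only between the clones in that fit (0.38, limma adjusted p = 0.0374). The pro-apoptotic gene XAF1 was listed at 0 in all libraries. BST2 (tetherin), which holds budding virus at the cell surface, had 1, 0 and 1 reads in Vector, 1, 1 and 0 in KO1 and 5, 12 and 1 in KO2. The exonuclease ISG20 measured 0.610 to 0.866 FPKM in Vector and 0.900 to 1.16 over the knockout libraries, and its values of 0.25 and 0.23 did not pass (limma adjusted p = 0.115 and 0.16).

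SP100 and PML are both proteins of PML nuclear bodies, and their transcripts moved in opposite directions. SP100 measured 3.24, 3.06 and 2.34 FPKM in Vector, 1.20, 1.04 and 1.21 in KO1 and 0.0763, 0.0619 and 0.0490 in KO2. No groups overlapped, and KO2 was the lowest, with 10 to 17 reads per library against 519 to 673 in Vector. SP100 fell by 0.85 in KO1 (SE 0.12, limma adjusted p = 0.000703) and by 1.86 in KO2 (SE 0.12, limma adjusted p = 1.03e-05), and KO2 was below KO1 by -1.02 (limma adjusted p = 0.000301). Neighbours on chromosome 2 had medians of 0.17 and 0.13, against the direction of the fall. PML measured 3.06, 3.33 and 4.63 FPKM in Vector, 5.53, 5.96 and 5.08 in KO1 and 5.48, 5.71 and 6.31 in KO2, with no overlap between Vector and either clone. PML rose by 0.49 in KO1 (SE 0.13, limma adjusted p = 0.0189) and 0.56 in KO2 (SE 0.13, limma adjusted p = 0.0129). The KO1 call was lost without Vector replicate 1 or 2 or KO1 replicate 1 or 2 (limma adjusted p = 0.0594 to 0.0755). The panels of 8 members by library set these genes beside UBE2L6 and TRIM25, and the plot of changes shows all fitted members by role.

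**Figure D3:**
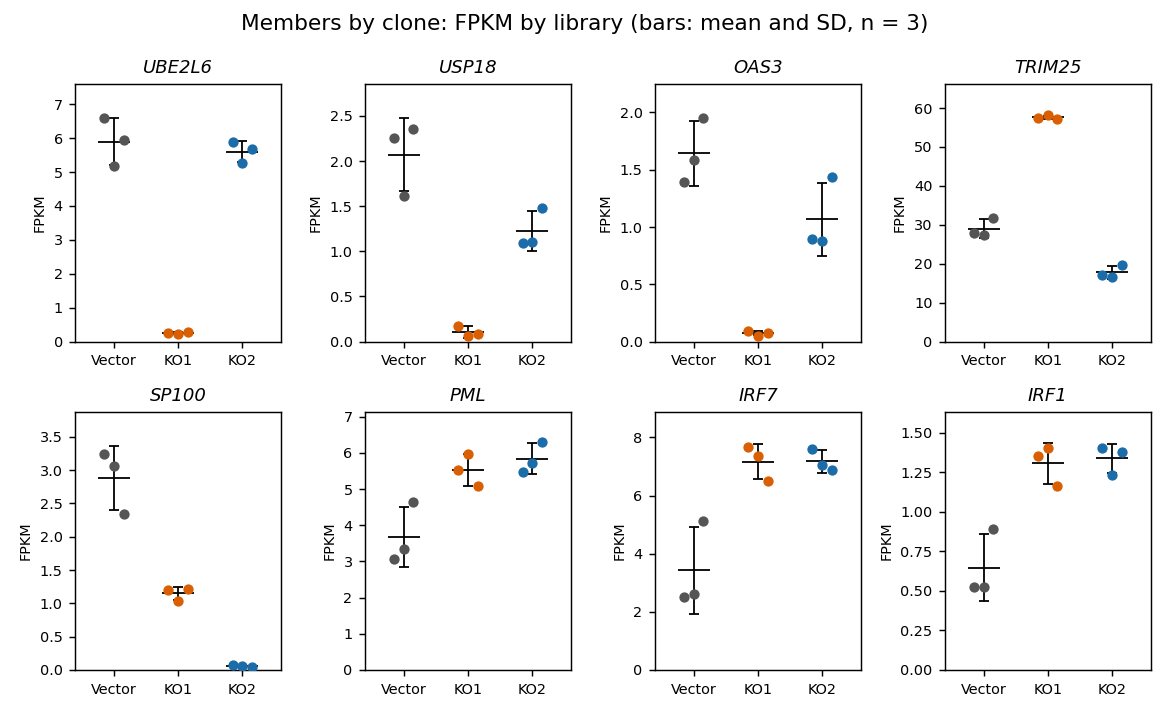
FPKM of 8 members by library (points; bars give mean and SD, n = 3; each panel starts at 0). UBE2L6, USP18 and OAS3 are lowest in KO1, SP100 is lowest in KO2, TRIM25 is highest in KO1 and lowest in KO2, and PML, IRF7 and IRF1 are above all Vector libraries in both clones.

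**Figure D4:**
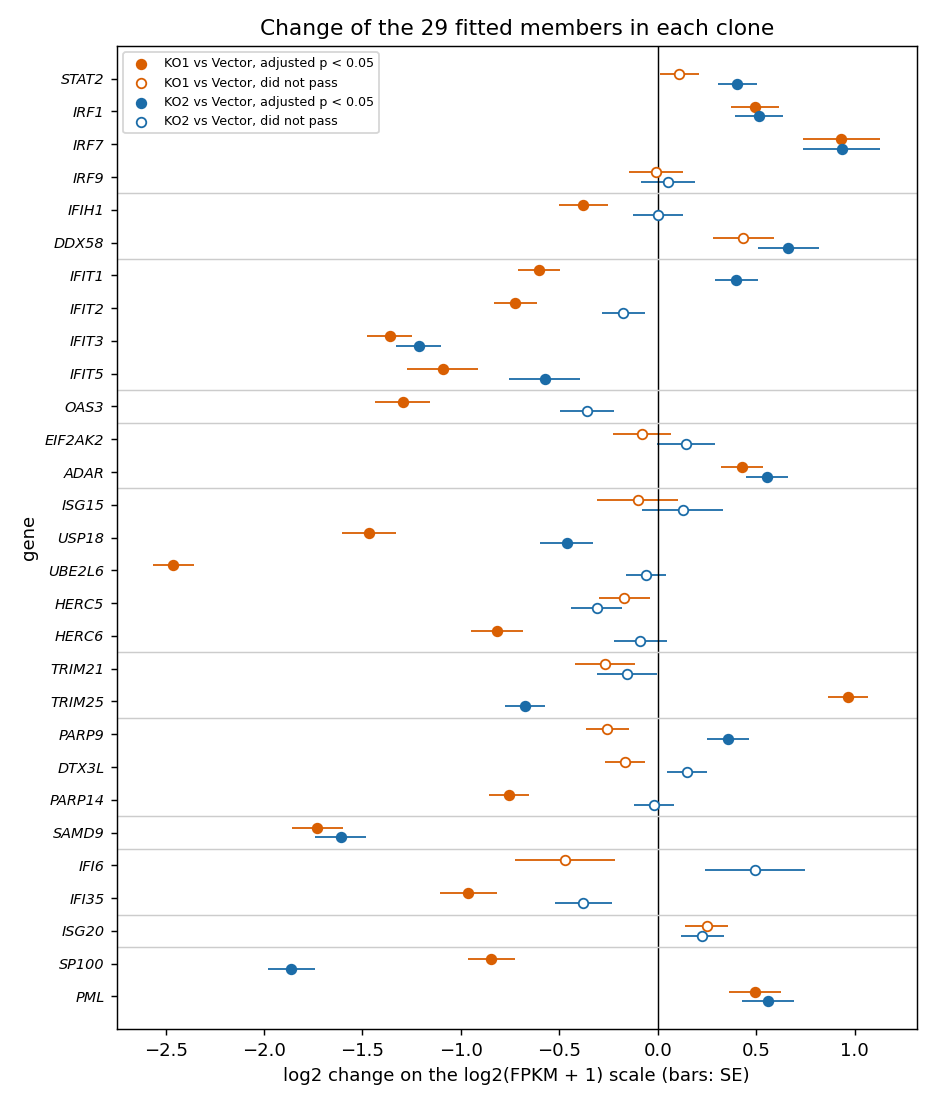
Change of the 29 fitted members against Vector on the log2(FPKM + 1) scale (points; bars give the standard error; filled points passed limma at an adjusted p under 0.05), grouped by role. More filled KO1 points lie left of 0 (13) than right of it (5), the largest fall being UBE2L6 in KO1 at -2.46, and KO2 points lie on both sides (6 and 8).

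Interferon ligand transcripts were few. Of 22 ligand genes, IFNE alone passed the minimum, at 1.80 ± 0.639, 1.74 ± 0.225 and 2.61 ± 0.636 FPKM in Vector, KO1 and KO2 (SD, n = 3), and it passed in neither clone. IFNB1 had at most 3 reads in a library, and IFNG and IFNL1 to IFNL4 were listed at 0 throughout. Of 10 genes of receptors and JAK-STAT signalling counted here, 7 were fitted. In KO1 1 rose and 0 fell by limma, beside 17.4% and 16.7% of all fitted genes, and in KO2 1 rose and 3 fell, beside 12.9% and 15%. STAT3, which answers mainly to other cytokines, rose by 0.31 in KO1 and 0.57 in KO2 (limma adjusted p = 0.0311 and 0.00241), and the KO1 call was lost in 6 of 9 fits with 1 library less (up to 0.11, without KO1 replicate 2) and with equal sums of FPKM (0.0811). The gamma interferon receptor chain IFNGR1 fell in KO2 (-0.83, limma adjusted p = 0.00408) and its kinase JAK2 by 0.39 (0.0271; lost in 5 of 9, up to 0.0924 without Vector replicate 1).

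Of 18 genes that lead from nucleic acid sensors to IRF3, 11 were fitted, and 2 rose and 2 fell in each clone by limma. That is 18.2% each way, near the 17.4% and 16.7% of all fitted genes in KO1 and beside 12.9% and 15% in KO2. TMEM173 (STING), the adaptor for cytosolic DNA, measured 3.76, 3.47 and 5.10 FPKM in Vector, 0.342, 0.671 and 0.615 in KO1 and 1.56, 1.75 and 1.25 in KO2. The 3 groups did not overlap. TMEM173 fell by 1.72 in KO1 and by 1.01 in KO2 (SE 0.15, limma adjusted p = 4.14e-05 and 0.00131). IRF3, the factor that STING and RIG-I activate, measured 12.7, 11.0 and 18.7 FPKM in Vector, 33.3, 30.1 and 28.2 in KO1 and 34.0, 31.2 and 24.3 in KO2. Every knockout library was above every Vector library. IRF3 rose by 1.09 and by 1.04 (SE 0.19, limma adjusted p = 0.00232 and 0.00367), beside neighbour medians of 0.35 and 0.46. IKBKE rose in KO1 (0.62, limma adjusted p = 0.00339) and TRAF3 fell there (-0.68, limma adjusted p = 0.00223, beside neighbours at -0.48; -0.17 and not passing with these subtracted). In KO2 MAVS, the adaptor of the RNA helicases, rose (0.58, limma adjusted p = 0.0328; lost in 6 of 9 fits, up to 0.108 without Vector replicate 1) and CGAS fell (-0.48, limma adjusted p = 0.0156; lost without Vector replicate 1 or KO2 replicate 1, 0.0559 and 0.0557).

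**Figure D5:**
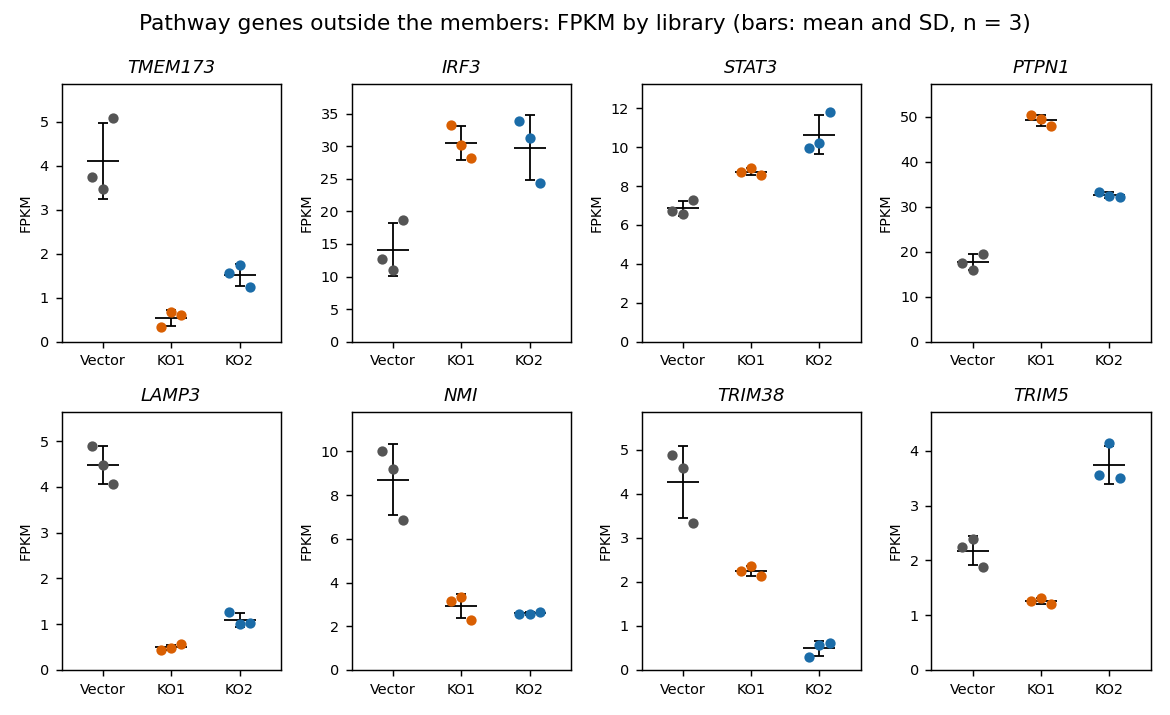
FPKM of 8 pathway genes that are not among the 42, by library (points; bars give mean and SD, n = 3; each panel starts at 0). TMEM173, LAMP3, NMI and TRIM38 are lower in both clones than in every Vector library, IRF3, STAT3 and PTPN1 are higher in both, and TRIM5 is lower than Vector in KO1 and higher in KO2.

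Of 13 negative regulators of the pathway, 11 were fitted. In KO1 3 rose (27.3%, beside 17.4% of all fitted genes) and 0 fell (16.7% of all). In KO2 4 rose (36.4%, beside 12.9% of all) and 0 fell (15% of all). PTPN1, a phosphatase that acts on JAK2 and TYK2, measured 17.5, 16.0 and 19.5 FPKM in Vector, 50.3, 49.4 and 47.8 in KO1 and 33.3, 32.3 and 32.2 in KO2. No groups overlapped, and PTPN1 rose by 1.43 in KO1 and by 0.85 in KO2 (SE 0.10, limma adjusted p = 8.56e-06 and 0.000269). SOCS1, the feedback inhibitor of JAK kinases, was low but rose in KO1 from 0.161 ± 0.136 to 0.895 ± 0.152 FPKM (SD, n = 3; 0.71, limma adjusted p = 0.00518). SOCS1 had 2, 3 and 10 reads in Vector, averaged under 0.5 FPKM there and in KO2, and passed the minimum through KO1. A gene kept in that way has to differ, so its p-value and its place among the 3 rising regulators add no test. PIAS3 rose in KO2 (0.62, limma adjusted p = 0.00808).

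A further list of 37 interferon-stimulated genes outside the 42 was counted the same way. This list too was chosen with earlier results of these data known, so its counts are no independent test. Of its 24 fitted genes 3 rose and 11 fell in KO1, with a median of -0.41, and 5 rose and 5 fell in KO2, with a median of 0.02. The shares were 12.5% and 45.8% in KO1, beside 17.4% and 16.7% of all fitted genes, and 20.8% each way in KO2, beside 12.9% and 15%. Between the clones 10 were higher and 4 lower in KO2, beside 14.5% and 16.4% of all. LAMP3, a lysosomal protein, fell from 4.49 ± 0.417 FPKM in Vector to 0.495 ± 0.0583 in KO1 and 1.10 ± 0.156 in KO2 (SD, n = 3; -1.87 and -1.39, limma adjusted p = 3.33e-06 and 2.76e-05). NMI, the partner of IFI35, fell from 8.71 ± 1.63 to 2.94 ± 0.56 and 2.58 ± 0.0554 FPKM (SD, n = 3; -1.30 and -1.42, limma adjusted p = 0.000216 and 0.00017). TRIM38 stood lower in KO1 (-0.69) and in KO2 (-1.82) (limma adjusted p = 0.00544 and 2.94e-05), and TRIM5 fell in KO1 (-0.49, limma adjusted p = 0.00643) and rose in KO2 (0.58, limma adjusted p = 0.00351). N4BP1 rose by 0.35 and by 0.37 (limma adjusted p = 0.0121 and 0.0119; in KO1 lost without KO1 replicate 2, 0.0577). LGALS3BP rose in KO1 (0.66, limma adjusted p = 0.00436) and by 0.40 in KO2 (0.0482; lost in 7 of 9 fits, up to 0.153 without Vector replicate 2, and with equal sums of FPKM, 0.0568). Of 14 genes that answer mainly to interferon gamma only 3 were fitted. Among these ICAM1 rose in both clones (1.35 and 1.25, limma adjusted p = 0.000435 and 0.000919) and WARS fell in KO2 (-1.17, limma adjusted p = 0.000109).

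Markers of other cell types were checked beside these results. Of 11 leukocyte markers the summed level was 0.689 to 1.08 FPKM in Vector against 0.803 to 1.01 in KO1 and 0.847 to 1.47 in KO2, with CD3E, CD3D, CD2 and MS4A1 at 0 in all libraries. Of 7 fibroblast and endothelial markers it was 0.242 to 0.279, 0.0665 to 0.118 and 0.598 to 0.784 FPKM. The sum of 11 lung epithelial markers was 67.1 to 92.2 FPKM in Vector against 426 to 490 in KO1 and 103 to 121 in KO2, nearly all from the keratins KRT8 and KRT18. Of the same list, NKX2-1, SFTPB, SFTPC, SFTPA1, EPCAM, CDH1 and KRT19 were at or near 0 in every group. KRT7 averaged 0.0996, 0.906 and 0.101 FPKM and NAPSA 0.272, 0.0857 and 0.420 in Vector, KO1 and KO2. The keratin sum moved with the lower interferon-stimulated genes of KO1, and its part in them was not tested.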

How the data were processed

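The deposited table holds FPKM that the authors made from their reads on the build hg38; the submitters' processing notes list featureCounts 1.5.0-p3, HISAT2 2.0.5 and CASAVA 1.6. Their order, options and strand setting: not given in the sources used here. Gene positions are from GENCODE 29, whose names equalled the table's for 99.95% of genes. Multiplying FPKM by exon length gave whole reads within 0.02 for all values above 0. These recovered reads give the depths and the read counts.

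On the log2(FPKM + 1) scale, the 16426 genes averaging 0.5 FPKM or more were fitted with limma 3.58.1 (R 4.3.3, trended empirical Bayes, all 9 libraries, group as the only term). The scale understates changes of low genes. Calls used a Benjamini-Hochberg adjusted p under 0.05 over all fitted genes. The neighbour median is the median change of fitted genes within 5 Mb, members left out. Promoters were searched in Python 3.11.15.

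The members and lists were chosen with earlier results of these data known. Values are given in every library for the 4 transcription factors and for members that passed with a change of at least 1 in any comparison, and as reads for members under the minimum. ISG15, IFI6 and PML are also given by library, chosen after their values were seen. From each other list up to 2 rising and 2 falling genes per clone with the smallest p are named. The fit was repeated under 19 other settings. Both clones share the Vector libraries, so no overlap between their calls was computed. Some genes of the pathway are not reported here.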

Additional observations from a re-analysis of the deposited data

Results flagged for a closer look

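The clones differed from each other, by limma's direct comparison of KO2 with KO1 at an adjusted p under 0.05, in 14 of the 29 fitted members, beside 14.5% of all fitted genes higher and 16.4% lower. KO2 was higher in UBE2L6 (2.40), USP18 (1.004), IFIT1 (1.0), IFI6 (0.966), OAS3 (0.935), PARP14 (0.737), HERC6 (0.727), PARP9 (0.612), IFI35 (0.584), IFIT2 (0.549), IFIH1 (0.38) and DTX3L (0.316), on the log2 scale. It was lower in TRIM25 (-1.642) and SP100 (-1.016). The IFIH1 difference (limma adjusted p = 0.0461) was lost in 7 of 9 fits with 1 library less, up to 0.125 without KO1 replicate 1. That of IFI35 was lost without KO1 replicate 2 (limma adjusted p = 0.0517). The differences of DTX3L and IFI6 were lost in 7 and 4 of these 9 fits (limma adjusted p up to 0.145 and 0.0705). With the neighbours' median subtracted, PARP9 (0.30) and DTX3L (0.01) did not pass (limma adjusted p = 0.0829 and 0.958). The named genes of the other lists were picked for their small p against Vector, so the share of them that differed between the clones says nothing beyond that choice. Those that differed were 10 of 20. KO2 was higher in TRIM5 (1.065), TMEM173 (0.71), TRAF3 (0.541) and LAMP3 (0.486), and lower in TRIM38 (-1.132), IKBKE (-0.873), IFNGR1 (-0.841), WARS (-0.84), PTPN1 (-0.579) and JAK2 (-0.453). JAK2 stood at -0.03 with the neighbours' median subtracted.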

How the results depend on the processing

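No change of a named gene turned its sign past the threshold under any of the 19 settings. Without both libraries that stood apart (Vector replicate 3, KO2 replicate 3) there were 8 rising members in KO1. A minimum of 1 FPKM, which left 22 members, gave 8 falling in KO1. Comparing the KO2 and Vector libraries alone gave 5 rising in KO2. Leaving out 1 library gave 2 (without KO1 replicate 2) to 5 rising members in KO1 and 12 to 13 falling, 5 to 9 rising and 4 to 8 falling in KO2, and 8 to 14 members higher in KO2 than in KO1. Replicate numbers do not pair the libraries (correlations of deviations from group means of -0.202 to 0.142 for same-numbered libraries). With the replicate block 5 rose and 12 fell in KO1, 6 and 5 in KO2, and 10 were higher and 2 lower in KO2 than in KO1. With limma-voom on recovered reads the counts were 6 and 14, 8 and 7, and 14 and 2, and with neighbours' medians subtracted 4 and 12, 8 and 6, and 13 and 2. Depth limits the 13 members under 0.5 FPKM, which rest on few reads.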
